A study of Mus musculus with 4 samples.

Results

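The tissue kallikreins described here are 10 clustered serine protease genes of the mouse, Klk1, Klk1b3, Klk1b4, Klk1b5, Klk1b16, Klk1b21, Klk1b22, Klk1b24, Klk1b26 and Klk1b27, taken by their symbols from a table of 54232 genes. All 10 were found, each in 1 row. The family was chosen by the measured levels of Klk1b27 in these same 4 libraries, which are higher in heterozygous than in wild-type kidney. The values of that comparison are therefore a description. Members that passed a filter took part in a test over all genes, but nothing is concluded from its outcome for them. Poly(A) RNA was sequenced from kidneys of adult mice at 60 days of age, in 4 libraries. The WT libraries (replicates 1 and 2) came from wild-type mice, and the HET libraries (replicates 1 and 2) from mice with 1 wild-type allele of Tshz3 and 1 LacZ allele (Tshz3+/LacZ). Tshz3 encodes a zinc-finger transcription factor, and the series is about impaired kidney function when 1 copy of it is lost. Each library was a pool of RNA from kidneys, with 3 kidneys per group named in the labels. The sources used here do not give sex or strain, nor whether the 2 pools of each genotype share mice, so the spread between pools may be partly technical.

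Kallikreins are secreted serine proteases. Tissue kallikrein, the product of Klk1, cuts kininogens to release kinins, short peptides that act on bradykinin receptors to widen vessels and to promote sodium excretion. In the kidney it is made mainly in the connecting tubule and released into the tubular fluid. The mouse carries a large set of close copies of the gene, the Klk1b genes, best known from the submandibular gland, where several are induced by androgen and where their products bind or process growth factors.

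Tshz3 itself was no lower in HET than in WT, at 0.653 and 0.723 scaled TPM in WT against 0.833 and 0.760 in HET, so every direction given here follows the labels of the libraries. Which exons the LacZ allele still transcribes was not tested. TPM is the share of transcripts that a gene makes up once its exon length is allowed for. The deposited TPM correspond to between 62631750 and 70792042 reads per library. Levels are given as scaled TPM, in which a trimmed mean of M values (TMM) sets the libraries on a common scale, with the SD over n = 2 pools. Sex-linked and sex-dependent transcripts differed between the pools. Xist, the RNA that coats the inactive X, had 18.1 and 39.7 scaled TPM in WT and 60.5 and 57.7 in HET, and the Y-linked gene Ddx3y at 21.1 and 16.2 in WT and 4.02 and 17.0 in HET. Of 12 genes with male-biased expression in mouse kidney, all 12 were lowest in HET replicate 1. Of 4 genes with female-biased expression there, 2 were highest in HET replicate 1 and 1 was lowest in it. The part of sex in any difference below was not tested.

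The 10 genes lie on chromosome 7 within 217 kb (mm10, 44012168 to 44229618), all on the plus strand, and their first base is 7.24 Mb from the end of Tshz3 on the same chromosome. In order along the chromosome they are Klk1b26, Klk1b27, Klk1b21, Klk1b22, Klk1b16, Klk1b24, Klk1b3, Klk1b4, Klk1b5 and Klk1. Each of the 10 has 5 coding exons. No exon of the 10 genes shares a base with an exon of another annotated gene in the deposited table. Gm10109, an annotated gene on the minus strand (44221017 to 44227421), starts within the span of Klk1 and ends between Klk1 and Klk1b5. It touches no exon of Klk1. Its level was 0.645 and 0.692 scaled TPM in WT and 1.25 and 1.27 in HET.

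Klk1 accounted for nearly all of the family's transcripts. The gene (ENSMUSG00000063903, 44225360 to 44229618) was at 641 and 666 scaled TPM in WT replicates 1 and 2 and at 776 and 402 scaled TPM in HET replicates 1 and 2, on 20143, 23100, 25181 and 15161 reads. HET replicate 1 was the highest and HET replicate 2 the lowest, with both WT libraries between them, so the groups overlapped. The means were 654 ± 17.9 in WT and 589 ± 264 in HET (SD, n = 2), and the log2 difference of HET from WT was -0.23. That difference was 0.25 without HET replicate 2 and -0.70 without HET replicate 1. By deposited TPM, Klk1 ranked between 92 and 180 among all genes of a library. It made up 93.1% and 92.5% of the summed TPM of the 10 genes in WT, and 92.6% and 91.9% in HET.

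Klk1b3 and Klk1b5, which with Klk1b4 lie next to Klk1, were the only other members above 4 scaled TPM in any library. Klk1b3 (ENSMUSG00000066515, 44198191 to 44202352) encodes an active protease known from the submandibular gland. It was at 31.5 and 35.9 scaled TPM in WT and 37.4 and 22.3 in HET, on 695 to 1026 reads. Klk1b5 (ENSMUSG00000066512, 44215945 to 44220703) was at 12.1 and 13.9 scaled TPM in WT and 16.4 and 8.57 in HET, on 417 to 689 reads. Both ordered the libraries as Klk1 did at the extremes, highest in HET replicate 1 and lowest in HET replicate 2. The log2 difference of HET from WT was -0.21 for Klk1b3, with its HET pools at 0.15 and -0.58 from the WT mean. It was -0.12 for Klk1b5, with its HET pools at 0.33 and -0.57. With the TPM as deposited, the differences of Klk1, Klk1b3 and Klk1b5 were above 0, at 0.029, 0.037 and 0.12. The 3 genes Klk1, Klk1b3 and Klk1b5 together held between 98.9% and 99.4% of the family's TPM.

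**Figure D1:**
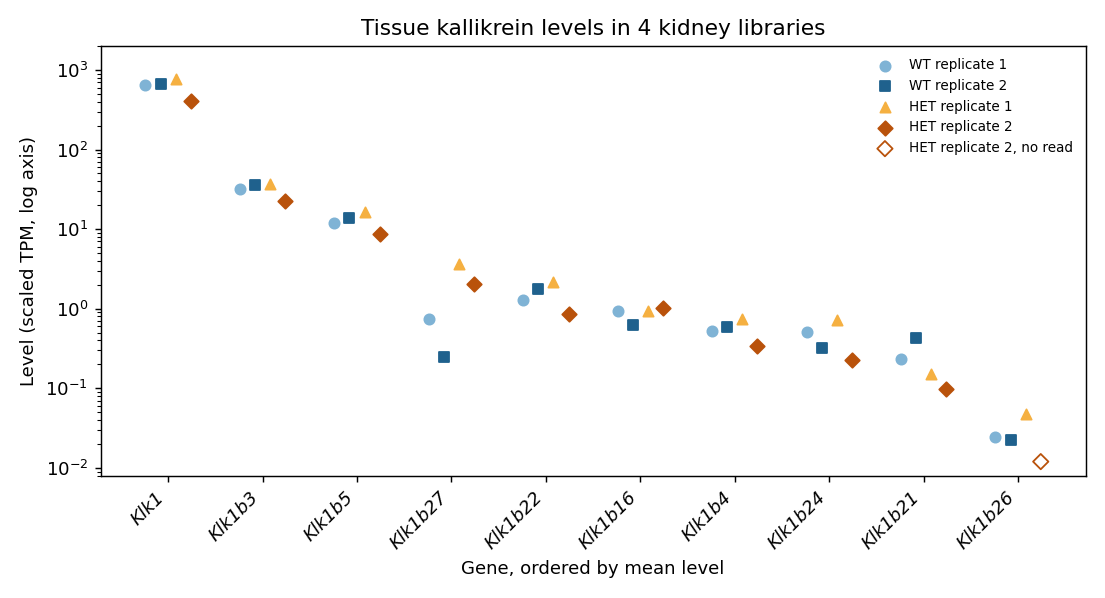
Levels of the 10 tissue kallikreins in scaled TPM on a log axis, 1 point per library and no error bars, with genes ordered by their mean. Klk1 lies at 402 to 776, Klk1b3 and Klk1b5 at 8.57 to 37.4, and the remaining genes below 4. The open marker stands for HET replicate 2 with no read of Klk1b26.

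The coding sequences show how closely these 3 genes resemble each other. Klk1 and Klk1b5 were the closest pair of the family, with 95.2% of aligned coding bases identical, and over all 45 pairs the identity ran from 81.4% to 95.2% with a median of 87.2%. The first 120 coding bases, from the start codon on, are shown 5′ to 3′ from GENCODE M21 for the 3 most abundant members and for Klk1b27 and its closest relative Klk1b21, with capitals at bases that differ from Klk1.
Klk1: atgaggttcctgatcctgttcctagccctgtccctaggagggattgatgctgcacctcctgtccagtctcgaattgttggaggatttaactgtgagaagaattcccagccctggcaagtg
Klk1b5: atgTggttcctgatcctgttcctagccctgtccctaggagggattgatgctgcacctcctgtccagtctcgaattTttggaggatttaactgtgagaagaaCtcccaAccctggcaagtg
Klk1b3: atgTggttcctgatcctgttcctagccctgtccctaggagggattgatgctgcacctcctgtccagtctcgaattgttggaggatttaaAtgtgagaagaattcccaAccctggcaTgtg
Klk1b21: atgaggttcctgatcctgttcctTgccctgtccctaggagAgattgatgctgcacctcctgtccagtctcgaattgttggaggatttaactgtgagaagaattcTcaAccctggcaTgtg
Klk1b27: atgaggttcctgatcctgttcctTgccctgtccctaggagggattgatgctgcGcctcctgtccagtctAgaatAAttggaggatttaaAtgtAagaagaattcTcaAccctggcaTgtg
In this stretch Klk1b5 and Klk1b3 each differ from Klk1 at 4 bases, Klk1b21 at 5 and Klk1b27 at 10. The stretch codes for the secretion signal and the start of the protease, and long runs of it are the same in all 5 genes.

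Such likeness bears on what a read count of a single member means, because only alignments marked as unique entered the deposited values. Of all windows of 50 bases in the Klk1 transcript, 28.4% also occur in a GENCODE transcript of another gene, most of them in Klk1b5. The share was 21.3% for Klk1b3, 17.1% for Klk1b5, 14.3% for Klk1b27 and 33.9% for Klk1b24, the highest of the 10. With windows of 100 bases it was 6.08% for Klk1, 1.77% for Klk1b27 and 0% for Klk1b3 and Klk1b22. None of the windows of 100 bases in Klk1b27 occurs in Klk1, and 3.93% of its windows of 50 bases do. The sources used here give no read length and say no more of reads with several matches than the word unique, so levels of members that share stretches are uncertain, in particular the low levels beside that of Klk1.

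**Figure D2:**
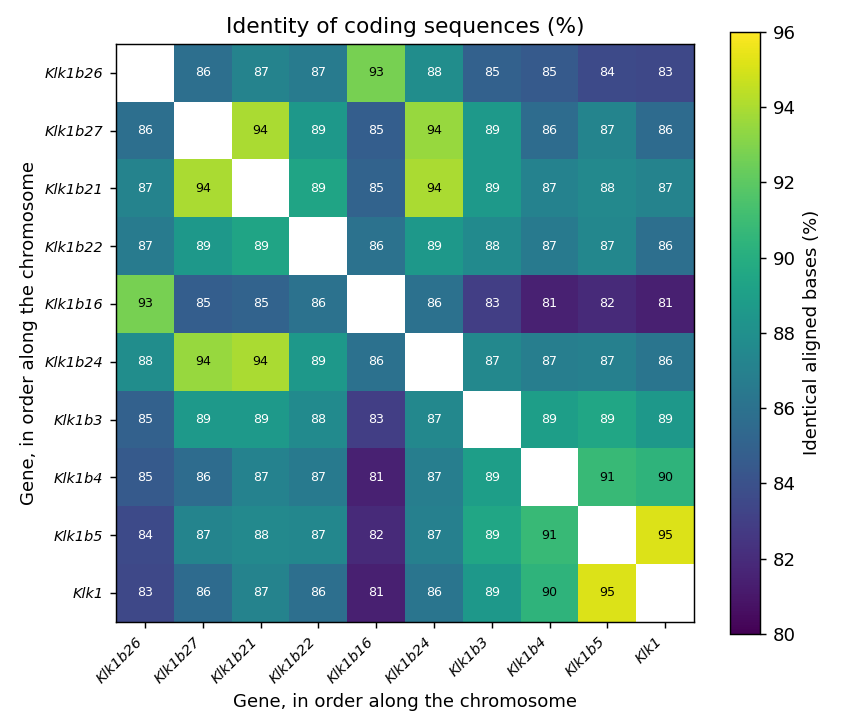
Identical aligned coding bases in percent for each pair of the 10 genes, in order along the chromosome, with colour from 80 to 96. Klk1 with Klk1b5 at 95.2 and the 3 genes Klk1b27, Klk1b21 and Klk1b24 with each other at 93.6 to 94.0 stand above the median of 87.2.

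The pattern of Klk1b27, by which the family was chosen, was unlike that of Klk1 over the libraries. The gene (ENSMUSG00000063177, 44052290 to 44056712) belongs with Klk1b21 and Klk1b24 to a group of mouse kallikreins known from Leydig cells of the testis. It was at 0.733 and 0.245 scaled TPM in WT and at 3.62 and 2.06 scaled TPM in HET. The groups did not overlap, on 19 and 7 reads in WT and 97 and 64 reads in HET. The 95% exact Poisson intervals of these read numbers, which cover counting error only, were 11.4 to 29.7 and 2.81 to 14.4 in WT and 78.7 to 118 and 49.3 to 81.7 in HET. The means were 0.489 ± 0.345 in WT and 2.84 ± 1.11 in HET (SD, n = 2), a ratio of 5.81. On the log2(scaled TPM + 0.5) scale, which understates changes at such low levels, the difference was 1.76, and it lay between 1.36 and 2.63 over the 10 alternatives that gave a value. In the authors' deposited table Klk1b27 is the sole member of the family among 97 genes, with a log2 fold change of 0.72 ± 0.20 (SE) and a mean normalized count of 46.6, the lowest in that list. In the authors' deposited table the log2 value corresponds to a fold of 1.64, below the ratio of means of 5.81, and the reason for the gap was not tested.

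Relative to Klk1 in the same library, a ratio on which scaling between libraries has no influence, Klk1b27 stood apart from the abundant members. For each 1000 TPM of Klk1 there were 1.14 and 0.367 TPM of Klk1b27 in WT, against 4.67 and 5.11 in HET, and the highest ratio was 13.9 times the lowest. For Klk1b3 the ratio was 49.1 and 53.8 in WT and 48.2 and 55.5 in HET, with the highest 1.15 times the lowest. For Klk1b5 it was 18.8 and 20.9 in WT and 21.2 and 21.3 in HET, with the highest 1.13 times the lowest and both HET values above both WT values by a small margin. Klk1b4 had a ratio between 0.828 and 0.969, with the highest 1.17 times the lowest, but on 10 to 19 reads per library its counting error is wider than that range, so a constant proportion cannot be read from it. The proportions of Klk1b3 and Klk1b5 to Klk1 thus varied little over the 4 libraries, and that of Klk1b27 varied more. Klk1b27 chose the family and its WT ratios rest on 19 and 7 reads, so nothing is read from this contrast. Among the other low members with reads in every library, the highest ratio was between 1.17 times (Klk1b4) and 3.27 times (Klk1b21) the lowest. For the pseudogene Klk1b19-ps of the same cluster, on 1 to 6 reads, it was 9.97 times.

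**Figure D3:**
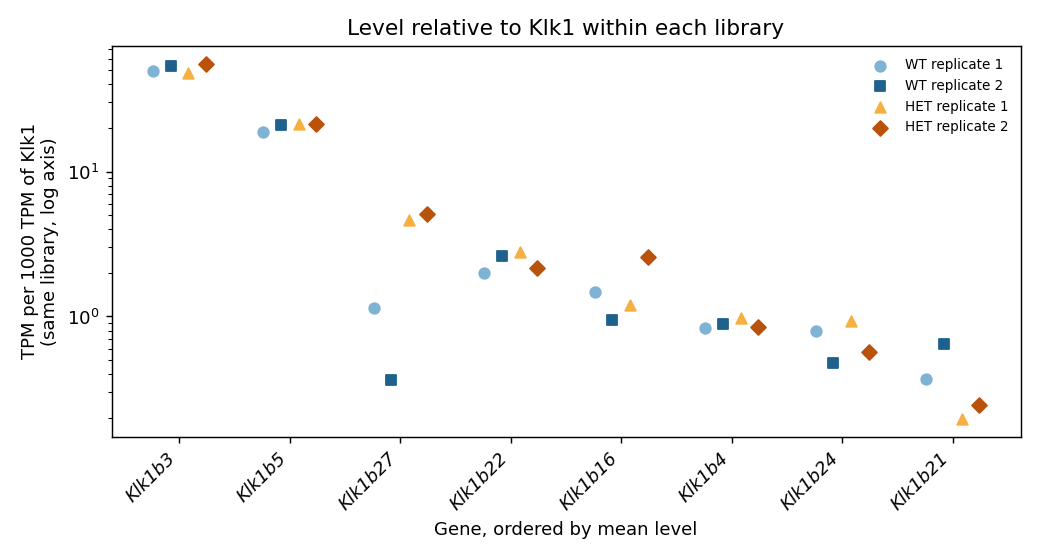
TPM of each gene for each 1000 TPM of Klk1 in the same library, on a log axis, 1 point per library. Klk1b26 is left out because it had at most 2 reads. Points of Klk1b3, Klk1b5 and Klk1b4 nearly coincide, while Klk1b27 has its WT points at 1.14 and 0.367 and its HET points at 4.67 and 5.11.

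The closest relatives of Klk1b27 in sequence were not higher in the HET libraries by more than the spread of their pools. Klk1b21 (ENSMUSG00000066516, 44102328 to 44106583), with 94.0% of aligned coding bases identical to Klk1b27, was at 0.236 and 0.428 scaled TPM in WT and 0.152 and 0.0984 in HET, on 6, 12, 4 and 3 reads. Both HET libraries were thus below both WT libraries, but the 95% exact Poisson interval of the 3 reads, 0.619 to 8.77, reached above the 6 reads of WT replicate 1. Klk1b24 (ENSMUSG00000063713, 44188236 to 44192455), with 93.6% identity to Klk1b27, was at 0.508 and 0.319 scaled TPM in WT and 0.718 and 0.228 in HET, and its groups overlapped. All 3 genes shared almost the same sequence upstream of their starts. Over the 250 bases before the RefSeq start, Klk1b27 was 94.6% identical to Klk1b21 and 91.9% identical to Klk1b24 in the aligned part, against 79.8% to Klk1 and 83.4% to Klk1b3.

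The last 150 bases before the RefSeq start (GRCm38.p6, plus strand, 5′ to 3′) are shown for Klk1b27, for its relative Klk1b24 with a different pattern over the libraries, and for the abundant members Klk1b3 and Klk1, with capitals marking the hexamer TTTAAA. The windows are chr7:44052140-44052289 for Klk1b27, chr7:44188086-44188235 for Klk1b24, chr7:44198041-44198190 for Klk1b3 and chr7:44225210-44225359 for Klk1.
Klk1b27: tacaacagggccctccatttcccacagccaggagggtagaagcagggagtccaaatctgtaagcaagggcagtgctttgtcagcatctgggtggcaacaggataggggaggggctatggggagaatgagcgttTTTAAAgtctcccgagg
Klk1b24: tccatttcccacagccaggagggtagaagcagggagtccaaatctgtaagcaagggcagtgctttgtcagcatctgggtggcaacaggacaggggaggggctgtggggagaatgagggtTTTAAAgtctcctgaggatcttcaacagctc
Klk1b3: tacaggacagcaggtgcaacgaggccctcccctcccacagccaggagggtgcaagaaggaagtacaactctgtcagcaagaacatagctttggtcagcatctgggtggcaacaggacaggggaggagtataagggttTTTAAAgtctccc
Klk1: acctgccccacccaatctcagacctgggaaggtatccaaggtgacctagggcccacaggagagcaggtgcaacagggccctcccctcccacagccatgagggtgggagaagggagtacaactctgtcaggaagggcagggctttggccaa
Counted from the start, the first base of TTTAAA is at -17 in Klk1b27, at -31 in Klk1b24 and at -13 in Klk1b3. The hexamer is not in the window of Klk1. The windows depend on the annotated starts, and the last bases of the Klk1 window resemble a stretch well before TTTAAA in Klk1b27, Klk1b24 and Klk1b3. Bases after the start of Klk1 were not searched. RefSeq starts also differ from the deposited first bases, by 529 bases for Klk1b5 and -36 for Klk1b21. The same limit holds for the counts that follow. TTTAAA, which reads the same on both strands, occurred in the 250 bases before the start of 8 of the 10 members and in 12.1% of all 32851 such windows in the RefSeq table. TATAAA, read on both strands, occurred in 0 of the 10 members and in 12.4% of all windows. AGAACA, the core letters of androgen and glucocorticoid receptor elements, read on both strands, occurred upstream of Klk1b3 and Klk1b24, and in 16.1% of all windows. GGTCA, read on both strands, occurred in 8 of the 10 members and in 35.2% of all windows. These matches describe letters only, and nothing is drawn from them about any factor.

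The other 4 members were low and showed no common direction. Klk1b22 (ENSMUSG00000060177, 44112673 to 44116922), which encodes an epidermal growth factor-binding protein, was at 1.28 and 1.74 scaled TPM in WT and 2.17 and 0.869 in HET, again highest in HET replicate 1 and lowest in HET replicate 2. Klk1b16 (ENSMUSG00000038968, 44136767 to 44141610), known as gamma-renin, was at 0.939 and 0.627 scaled TPM in WT and 0.933 and 1.03 in HET. Its groups overlapped by a small margin with scaling, while in the TPM as deposited both HET libraries, at 0.988 and 1.16, were above both WT libraries, at 0.807 and 0.612. Klk1b4 (ENSMUSG00000066513, 44207435 to 44211754), whose product lacks protease activity, was at 0.531 and 0.593 scaled TPM in WT and 0.752 and 0.341 in HET. Klk1b26 (ENSMUSG00000053719, 44012168 to 44016968), an epidermal growth factor-binding protein also known as a prorenin-converting enzyme, had 1, 1, 2 and 0 reads, with an upper 95% exact Poisson bound of 3.69 for the library with 0, so that no difference was detectable at this depth. The ratio of Klk1b16 to Klk1 was highest in HET replicate 2, at 2.56 TPM for each 1000 TPM of Klk1, against 0.941 to 1.46 in the other 3 libraries.

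In order of mean level the family ran Klk1, Klk1b3, Klk1b5, Klk1b27, Klk1b22, Klk1b16, Klk1b4, Klk1b24, Klk1b21 and Klk1b26. The 4 libraries of Klk1, of Klk1b3 and of Klk1b5 did not overlap with those of the next gene in this order, and their means stood in ratios of 19.6, 2.49 and 7.67 to it. From Klk1b27 to Klk1b21 the ranges of each gene and the next overlapped, so their order is not fixed beyond the spread between libraries. Klk1b21 was above Klk1b26 in every library. The level fell with distance from Klk1 only in part. Klk1b4, which lies between the abundant Klk1b3 and Klk1b5, was at a mean of 0.554 scaled TPM, and Klk1b12-ps, a pseudogene beyond the far end of the 10 members, was at a mean of 5.34.

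**Figure D4:**
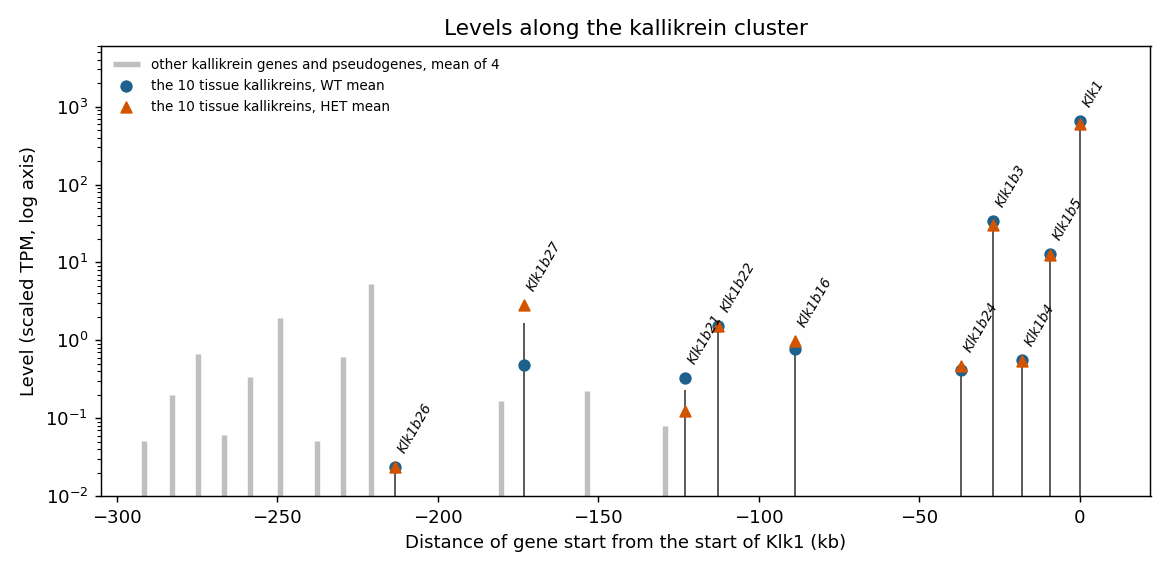
Mean level in scaled TPM on a log axis against the distance of each gene start from the start of Klk1 in kb, with circles for the WT mean and triangles for the HET mean of the 10 genes and grey bars for other kallikrein genes and pseudogenes with a read. Klk1b4, at 0.554, stands between Klk1b3 and Klk1b5, and the circle and triangle of Klk1b27 are the pair farthest apart.

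Of the 10 members 8 passed the filter on low values, and Klk1b21 and Klk1b26 did not. Klk1b27 had fewer than 10 reads in WT replicate 2 and passed through the other libraries. Over all 22356 genes tested, limma called 2 genes at an adjusted p below 0.1, which is 0.00895%, and 0 of the 8 tested members were among them. At an unadjusted p below 0.05 there were 1624 genes. Among the 8 tested members 1, Klk1b27, had both HET libraries above both WT libraries, where 21.8% of all tested genes did, and 0 had both below, where 23.1% did. The log2 difference of HET from WT was above 0 for 3 members and below 0 for 5, with a median of -0.057 beside a median of 0.0067 over all tested genes. With the TPM as deposited these medians were 0.12 and 0.20. As the comparison chose the family, nothing is read from these counts.

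The libraries differed more within HET than between genotypes for most of the family. HET replicate 1 was the highest library for 8 of the 10 members, and HET replicate 2 the lowest for 8 of the 10, beside 25.4% and 28.7% of all tested genes. The percentages cover tested genes only, while both counts of members include the untested Klk1b26, on at most 2 reads. The count of lowest values also includes the untested Klk1b21, on 3 to 12 reads. The count of highest values includes Klk1b27, whose HET levels chose the family. Over the tested members HET replicate 1 had a median log2 difference from the WT mean of 0.29, and HET replicate 2 one of -0.44. Genes of the distal convoluted and connecting tubule, where Klk1 is made, were also high in HET replicate 1. Of 17 such genes 16 were highest there, and the list's median stood 0.66 above the WT mean (log2) in HET replicate 1, beside -0.0011 in HET replicate 2. Of the genes, 16 of 17 were higher and 1 lower in HET by fitted difference, with 0 called. Over all 22356 tested genes 11422 were higher and 10934 lower, with 2 called. Of the 17 genes, 3 had both HET libraries above both WT libraries and 0 had both below, beside 21.8% and 23.1% of all tested genes. The summed level of the 17 genes was 1529 and 1370.2 scaled TPM in WT and 2537 and 1346 in HET. S100g, which encodes a calcium-binding protein and had the highest mean of the list, was at 707 and 472 scaled TPM in WT and 1159 and 515 in HET. Calb1, which encodes the calcium-binding protein calbindin of these segments, was at 83.8 and 89.7 scaled TPM in WT and 237 and 94.1 in HET. Within the list HET replicate 2 ran from -0.46 for Pvalb, the parvalbumin gene, to 0.51 for Slc8a1, a sodium-calcium exchanger gene. Genes of collecting duct principal cells had medians of 0.42 in HET replicate 1 and -0.21 in HET replicate 2, and those of intercalated cells 0.26 and -0.053. The proximal tubule list was below the WT mean in both, at -0.18 in HET replicate 1 and -0.26 in HET replicate 2. Of its 8 genes, 5 had both HET libraries below both WT libraries and 1 had both above, beside 23.1% and 21.8% of all tested genes. The male-biased list had medians of -1.96 in HET replicate 1 and -0.40 in HET replicate 2 on the same scale. The part of any of these lists in the levels of the kallikreins was not tested. In bulk tissue, fewer cells of a type and less RNA per cell cannot be told apart.

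**Figure D5:**
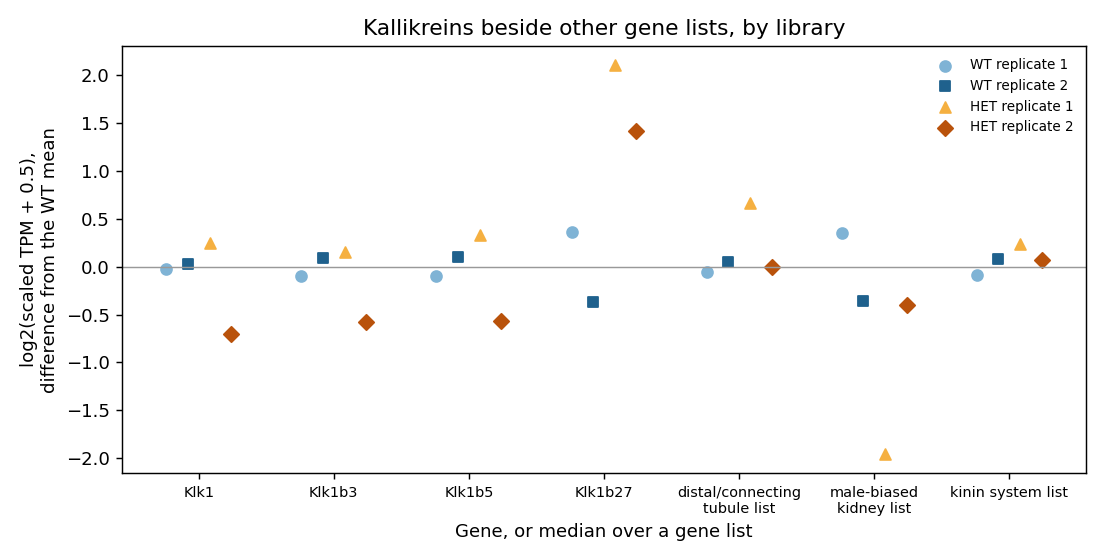
Difference from the WT mean in log2(scaled TPM + 0.5) by library, for 4 kallikreins and as the median over 3 gene lists, 1 point per library. Klk1, Klk1b3 and Klk1b5 and the distal and connecting tubule list have their highest point in HET replicate 1, and only Klk1b27 has both HET points, at 2.10 and 1.42, far above both WT points.

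Most markers of other tissues that a dissection could carry were at or near 0. Of 11 submandibular gland genes, 6 had no read in any library and 9 stayed below 1 scaled TPM in all 4. The salivary amylase gene Amy1, which other tissues also express, was above that level, at 5.82 and 7.56 in WT and 6.25 and 9.51 in HET. Of 8 genes of the exocrine pancreas 7 stayed below 1 scaled TPM. Of 5 Leydig cell genes 3 did, including Lhcgr, the receptor gene for luteinizing hormone, and Cyp17a1. Insl3, which encodes a Leydig cell hormone, was at 5.23 and 6.23 scaled TPM in WT and 6.34 and 7.89 in HET, so that its HET libraries lay above its WT libraries. Hsd3b6, a steroid dehydrogenase gene of the same list, lay the other way, at 1.03 and 0.655 in WT and 0.387 and 0.603 in HET, and Cyp17a1 overlapped. Of the 3 Leydig cell genes tested 2 had a fitted difference above 0 and 1 below, with a median of 0.0081 and 0 called, and the part of these genes in the level of Klk1b27 was not tested. Of 6 adrenal cortex genes 5 stayed below 1 scaled TPM. Among the markers of kidney itself, the phosphate transporter gene Slc34a1 of the proximal tubule was at 2692 and 2092.5 scaled TPM in WT and 2005 and 2003 in HET.

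The rest of the cluster was low. Besides the 10 members the table holds 27 other kallikrein genes and pseudogenes, of which 21 had a read and 3 a mean of at least 1 scaled TPM. These were Klk1b12-ps, Klk1b9 and Klk8, and of the 27 genes 5 were tested and 0 called, beside the 0.00895% over all genes. Klk1b12-ps (44004641 to 44008892) was at 5.61 and 6.12 scaled TPM in WT and 5.83 and 3.81 in HET, in a ratio to Klk1 that varied by 1.26 times. Klk1b9 (43976061 to 43980376), which encodes another epidermal growth factor-binding protein, was at 1.69 and 1.14 scaled TPM in WT and 3.66 and 1.35 in HET. Klk8 (43797577 to 43803826), which encodes neuropsin, was at 1.98 and 1.94 in WT and 1.55 and 1.35 in HET. For each 1000 TPM of Klk1 there were 2.64 and 1.71 TPM of Klk1b9 in WT and 4.72 and 3.35 TPM in HET, so that both HET ratios lay above both WT ratios, as for Klk1b27. The same held for Klk1b1, at 0.308 and 0.376 in WT and 0.789 and 0.737 in HET, on 5 to 16 reads. It also held for Klk1b2-ps, Klk1b10-ps and Klk1b14-ps, on at most 7 reads per library. The order was reversed for Klk1b21, Klk1b11, Klk1b7-ps and Klk15. By scaled TPM the groups of Klk1b9 overlapped. Nothing is read from these orders. Between the starts of Klk1b26 and Klk1, 18 other annotated genes have their lowest coordinate, among them some of the pseudogenes just counted. Of these 18, 11 had no read, and the highest mean was that of Gm10109, 0.965. The gene that follows Klk1, 1700028J19Rik, was at 6.03 and 6.17 scaled TPM in WT and 4.73 and 5.37 in HET.

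Genes around plasma kallikrein and the kinins ranged from abundant to barely detected. Of 17 genes of the plasma kallikrein and kinin system 16 were tested, 11 had a fitted difference above 0 and 5 below, and limma called 0, with a median log2 difference of 0.20 beside 0.0067 over all tested genes. F12, the gene of coagulation factor XII, which activates plasma kallikrein, had the highest ratio of HET to WT means among the tested genes of the list, 6.62. It was at 0.0700 and 0.0793 scaled TPM in WT and 0.389 and 0.598 in HET, on 4 and 5 reads in WT and 23 and 41 in HET. Mme, which encodes the kinin-degrading peptidase neprilysin, was at 39.9 and 60.3 in WT and 80.5 and 64.3 in HET. Of the 16 tested genes 6 had both HET libraries above both WT libraries and 1 had both below, beside 21.8% and 23.1% of all tested genes. Kng2, a kininogen gene and so a source of the substrate, was at 91.7 and 104 scaled TPM in WT and 139.9 and 91.3 in HET, also highest in HET replicate 1. Ace, whose product angiotensin-converting enzyme degrades kinins, had the highest mean of the list, at 203 and 154 in WT and 128 and 151 in HET. Serping1, whose product C1 inhibitor blocks plasma kallikrein, was at 58.6 and 75.1 in WT and 85.2 and 67.7 in HET. The receptor genes were low. Bdkrb2, which encodes the constitutive bradykinin receptor, was at 0.271 and 0.320 scaled TPM in WT and 0.586 and 0.399 in HET, and Bdkrb1, which encodes the inducible one, had 1 and 0 reads in WT and 5 and 5 in HET and was not tested. Klkb1, the plasma kallikrein gene, which is not a member of the cluster despite its name, was at 1.06 and 1.26 in WT and 1.24 and 1.24 in HET.

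The genes most like Klk1 and Klk1b27 over the 4 libraries were found by the root mean square difference of centred log2(scaled TPM + 0.5) among 13264 genes with a usual symbol and a mean of at least 1 scaled TPM. For Klk1 they included Cldn3, a claudin gene (0.034), and Cyp26b1, which encodes a retinoic acid hydroxylase (0.052). Klk1b5 was 5th in that order and Klk1b3 8th. Cldn3 was at 14.5 and 14.4 scaled TPM in WT and 17.2 and 9.10 in HET, the same shape as Klk1. For Klk1b27 the likest genes were Rasl10b, which encodes a small GTPase (0.34), the splicing factor gene Cwc22 (0.35) and Mir7027, on 4 to 20 reads (0.43). Rasl10b was at 0.385 and 0.372 scaled TPM in WT and 2.87 and 1.10 in HET. Klk1 was in place 10102 in the order for Klk1b27, so the pair lay no closer in pattern than most genes. No shared function is read from these likenesses.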

How the data were processed

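Total RNA from kidneys was pooled, per the labels' protocols, and poly(A) RNA was sequenced on an Illumina HiSeq. The authors deposited TPM for each gene, from alignments to mm10 marked unique per the file headers. Aligner, counter, library kit and strand setting were not given in the sources used here. A second file, the authors' deposited table of changed genes, lists per gene the log2 fold change and its SE, a test score, a p-value with its adjusted p-value, and a mean normalized count (a signal averaged over libraries by the authors). Per the submitters' processing notes, the tools included DESeq, DESeq2 and edgeR, versions not given.

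TPM times exon length came out as whole reads for 100% of values above 0, within 0.001 reads. These reads gave depth, TMM factors (0.901 and 0.989 in WT, 1.05 and 1.07 in HET), the filter (10 or more reads in 2 libraries when set to the median depth, and 15 or more over all 4) and limma-voom. With TMM the TPM were divided by 0.859 and 0.975 in WT and 1.06 and 1.13 in HET. The test was limma 3.58.1 (R 4.3.3, statmod 1.5.0) on log2(scaled TPM + 0.5) with a variance trend, robust moderation and Benjamini-Hochberg adjustment, and was checked on simulated reads. Sequences came from GENCODE M21 and from RefSeq's GRCm38.p6, where all 10 members matched by symbol, and were aligned with Biopython 1.88. The members and lists were chosen with earlier results of these data known. Named were all members, the 3 highest genes of the kinin list and of the rest of the cluster, the flanking genes, and the 3 genes most like Klk1 and Klk1b27. Some results that this rule or the lists would name are not reported here. Other genes were named after their values were seen.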

Additional observations from a re-analysis of the deposited data

How the results depend on the processing

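The count of 2 called genes became 5 with at least 1 read per 1000000 in 2 libraries. It was 0 with no filter, where 1945 genes had an unadjusted p below 0.05, and 0 with limma-voom (1771 genes). Leaving out a library gave between 0 and 97 called genes, namely 0 without WT replicate 1 (546 genes at an unadjusted p below 0.05), 8 without WT replicate 2, 61 without HET replicate 1 and 97 without HET replicate 2. With 1 library left in a group, that library is assumed to vary like the others. In the alternatives that kept all 4 libraries, 0 members were called. The log2 difference of Klk1b27 was 2.08 without HET replicate 2 and 1.41 without HET replicate 1. As its levels chose the family, these values are a description only. The median log2 difference of the tested members lay between -0.54, without HET replicate 1, and 0.29, without HET replicate 2. Klk1b27 and Klk1b16 kept a difference above 0 in all 10 alternatives that gave a value, and Klk1, Klk1b3 and Klk1b5 were above 0 in 2 of 11, without HET replicate 2 and with the TPM as deposited. With the replicate number as a block, 0 genes were called (1766 at an unadjusted p below 0.05). Same-numbered libraries deviated with a correlation of 0.12 over genes, and the labels do not say that numbers pair the pools. Reads limit the lower members, 7 of which had a median under 50 reads over the 4 libraries.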
